A study of Arabidopsis thaliana with 18 samples.

Results

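Anthocyanins are the purple pigments that Arabidopsis thaliana seedlings lay down under stress, and 5 genes of their synthesis were followed here on 18 arrays. The 5 were chosen by name and by probe set, the group of array probes that reports a transcript: DFR, UGT78D2, UF3GT, AT4G14090 and AT5MAT, with 1 probe set each. The choice was made with earlier results of these data known. Their ranks and counts of calls below may therefore partly reflect that choice. These are 5 of 22746 probe sets tested, and the probe table names a single gene for each of them. Gene expression had been measured in whole 7-day-old seedlings of the spx1,spx2 double mutant and of wild-type Col-0 (WT). Seedlings of each genotype had grown in complete medium, in medium lacking inorganic phosphate (Pi), or without Pi followed by 4 h back in complete medium, with 3 biological replicates in each of the 6 groups. The labels do not name the alleles of the mutant. Every resupplied group was moved to fresh medium and no group of moved but still starved seedlings is described, so the return of Pi and the transfer cannot be told apart. Whole seedlings were used, so fewer cells of a type and less RNA per cell cannot be told apart either.

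DFR reduces dihydroflavonols on the way to anthocyanins and tannins. UGT78D2 puts a glucose on the 3 position of flavonols and anthocyanidins, UF3GT (also called UGT79B1) adds a xylose to that glucose, AT4G14090 encodes the glucosyltransferase of the 5 position, and AT5MAT adds a malonyl group to the glucose placed there. Sugar and acyl decoration makes the pigment soluble and stable for storage in the vacuole. Pigment build-up is a classic sign of Pi starvation in seedlings. SPX1 and SPX2 encode proteins that bind and hold back PHR1, the main activator of the starvation response, when Pi is ample.

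Values are RMA signals on the log2 scale, where a difference of 1 is a doubling of signal. Array medians lay between 6.72 and 6.91 and lower quartiles between 4.40 and 4.68. A probe set's brightness depends on its probes, so levels are compared between groups and never between genes. On 3 arrays the spike-in control dap, an RNA added during labelling, read 4.73 to 4.93, against 7.62 to 9.12 on the other 15: these were spx1,spx2 complete replicate 2, WT complete replicate 3 and spx1,spx2 no Pi replicate 1. Of these 15 the lowest were the WT resupplied arrays, at 7.62 to 8.04, and the spx1,spx2 resupplied arrays read 8.24 to 8.48. Of 21 marker genes for seedling parts only EXPA7 and EXPA18, expansin genes of root hairs (2 of 8 root genes), had a named probe set, and no shoot or seed marker did. Both were above every lower quartile on all 18 arrays. The 3 prime minus 5 prime signal of the ubiquitin control, a sign of RNA integrity, moved with the medium: it was 1.26 to 1.35 in the mutant and 1.24 to 1.45 in WT in complete medium, 0.96 to 1.09 and 1.02 to 1.04 without Pi, and 1.15 to 1.22 and 1.10 to 1.21 after resupply. The same measure of a second control, GAPDH, overlapped between the media. Arrays of never-starved seedlings read -0.231 to 0.299, those of starved seedlings -0.228 to 0.147, and those of resupplied seedlings -0.217 to 0.043. The part of the ubiquitin shift in the differences between media given below was not tested.

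All 5 genes were brightest in WT seedlings 4 h after resupply, not in starved ones. In every gene but DFR the resupplied mutant came next, and in DFR it was level with starved WT. The lowest group was WT in complete medium for UGT78D2, UF3GT and AT4G14090, and for AT5MAT that group was level with the starved mutant.

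**Figure D1:**
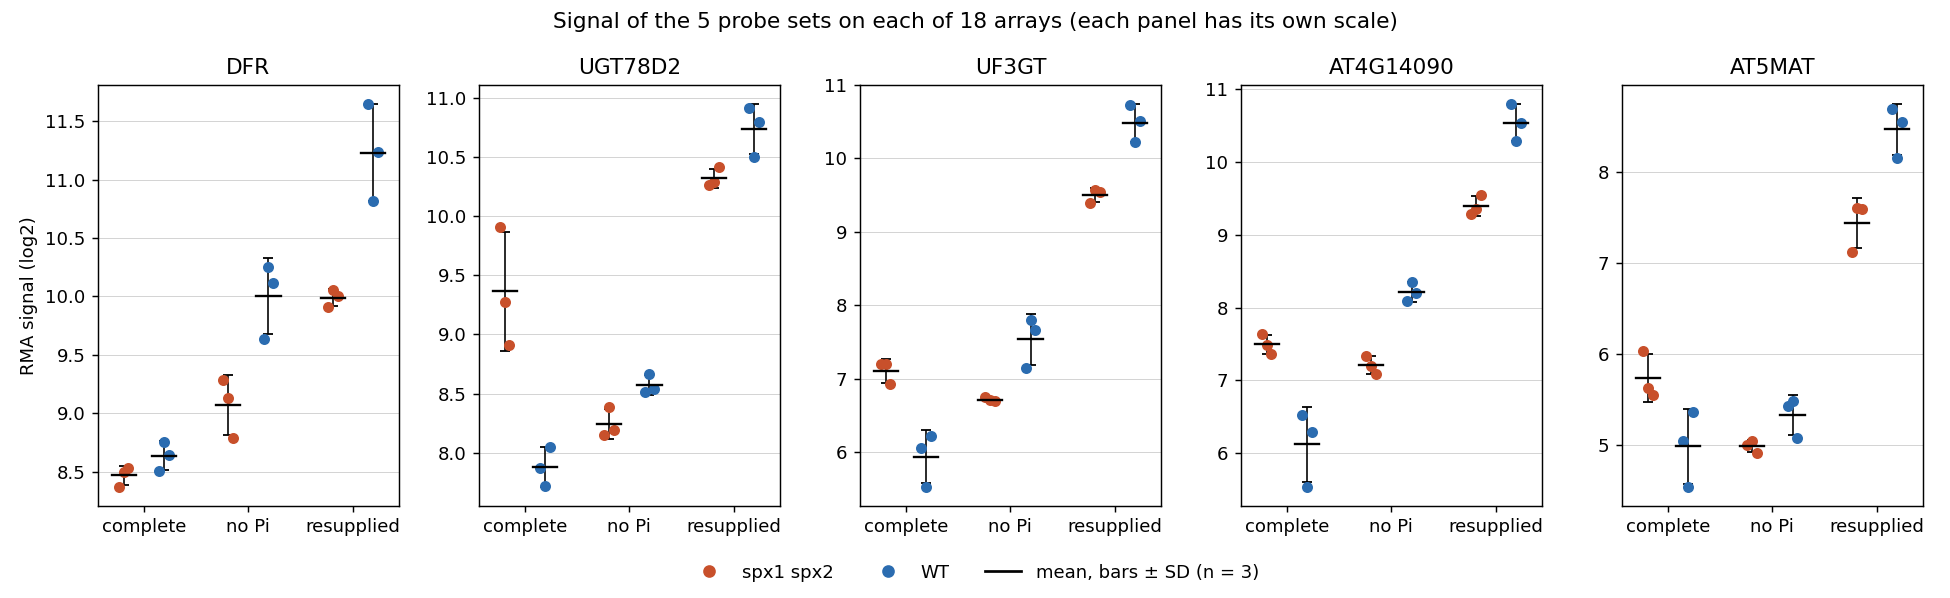
RMA signal (log2, y axis) of DFR, UGT78D2, UF3GT, AT4G14090 and AT5MAT on each array, by medium (x axis) with spx1,spx2 to the left of WT. Points are arrays, lines are means and bars are ± SD (n = 3). The WT resupplied arrays stand highest in all 5 panels, and in complete medium the mutant stands above WT in every panel except that of DFR.

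DFR, the branch-point reductase, read 8.37, 8.50 and 8.53 in spx1,spx2 seedlings in complete medium, against 8.51, 8.75 and 8.65 in WT. Without Pi it read 9.29, 9.13 and 8.79 in the mutant, against 9.63, 10.25 and 10.12 in WT. After resupply it read 9.91, 10.05 and 10.01 in the mutant, against 11.65, 10.81 and 11.23 in WT. The genotypes overlapped in complete medium and were apart in both other media, with WT higher. In the order of the 6 group means only 2 neighbouring pairs overlapped: starved WT (10.00 ± 0.33, SD, n = 3) with the resupplied mutant (9.99 ± 0.07), and the 2 complete-medium groups.

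UGT78D2, which starts the decoration, read 9.91, 9.27 and 8.91 in spx1,spx2 seedlings in complete medium, against 7.87, 7.72 and 8.05 in WT. Without Pi it read 8.15, 8.39 and 8.19 in the mutant, against 8.51, 8.67 and 8.54 in WT. After resupply it read 10.26, 10.29 and 10.41 in the mutant, against 10.91, 10.50 and 10.79 in WT. No neighbouring groups overlapped in this gene. The mutant in complete medium ranked above both starved groups, and its replicate 1 was the brightest of the 3. The mean of that group was 9.36 ± 0.50 (SD, n = 3), the widest spread of the 6 groups for this gene.

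UF3GT, the xylosyltransferase gene, read 7.20, 7.19 and 6.92 in the mutant in complete medium, against 6.06, 5.53 and 6.21 in WT. Without Pi it read 6.75, 6.70 and 6.69 in the mutant, against 7.14, 7.80 and 7.66 in WT. After resupply it read 9.39, 9.57 and 9.54 in the mutant, against 10.73, 10.22 and 10.50 in WT. The genotypes were apart in every medium, with the mutant higher in complete medium and WT higher in the other 2. Starved WT (7.53 ± 0.34, SD, n = 3) and the mutant in complete medium (7.11 ± 0.16) were the only neighbours that overlapped.

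AT4G14090, the gene of the 5-position glucosyltransferase, followed the same order of groups as UF3GT. It read 7.63, 7.49 and 7.37 in the mutant in complete medium, against 6.53, 5.54 and 6.30 in WT. Without Pi it read 7.33, 7.20 and 7.09 in the mutant, against 8.09, 8.36 and 8.20 in WT. After resupply it read 9.29, 9.36 and 9.55 in the mutant, against 10.80, 10.29 and 10.53 in WT. No neighbouring groups overlapped. The gap between the genotypes turned from mutant above WT in complete medium to mutant below WT without Pi and after resupply.

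AT5MAT, the malonyltransferase gene and the last of the 5 in pathway order, had signals near the arrays' lower quartiles before resupply. It read 6.04, 5.62 and 5.54 in the mutant in complete medium, against 5.04, 4.54 and 5.36 in WT. Without Pi it read 4.999, 5.042 and 4.909 in the mutant, against 5.42, 5.49 and 5.07 in WT. After resupply it read 7.12, 7.61 and 7.60 in the mutant, against 8.71, 8.16 and 8.56 in WT. WT complete replicate 2, the lowest of all, lay within the range of the arrays' lower quartiles, where RMA compresses differences. Such compression may touch each AT5MAT change that uses a complete-medium or starved group, and its part was not tested. Starved WT and WT in complete medium overlapped, and so did the starved mutant and WT in complete medium. The 2 resupplied groups stood apart from every other group and from each other.

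The effect of resupply, against the starved seedlings it started from, was a rise of all 5 genes in both genotypes. In the mutant AT5MAT rose 5.51-fold (2.46 ± 0.20 log2, SE, n = 3 arrays per group) and in WT 8.87-fold (3.15 ± 0.20). UF3GT rose 6.89-fold in the mutant (2.79 ± 0.18) and 7.73-fold in WT (2.95 ± 0.18), AT4G14090 rose by 2.19 ± 0.19 and 2.33 ± 0.19, and UGT78D2 by 2.08 ± 0.18 and 2.16 ± 0.18. DFR had the smallest rise, 1.89-fold in the mutant (0.92 ± 0.18) and 2.35-fold in WT (1.23 ± 0.18). The median of the 5 was 2.19 in the mutant and 2.33 in WT, while over all probe sets it was -0.01 and -0.05. Over all probe sets 23.5% rose in the mutant and 18.4% in WT by limma with a Benjamini-Hochberg adjusted p of 0.05. Counted from the largest rise of all 22746 probe sets, UF3GT ranked 34, AT5MAT 64, AT4G14090 104, UGT78D2 130 and DFR 1493 in the mutant. In WT AT5MAT ranked 17, UF3GT 22, AT4G14090 60, UGT78D2 85 and DFR 683. The largest limma adjusted p among the 5 was 0.000374 in the mutant and 2.11e-05 in WT, both that of DFR. The spike-in control dap was lower in WT resupplied than in the other arrays without a low reading, and its part in the WT values was not tested. Within the 15 arrays without a low dap reading all 5 calls were kept in both genotypes. The root hair genes rose with resupply in the mutant (EXPA7 by 1.91 ± 0.20 and EXPA18 by 1.98 ± 0.22), and in WT EXPA18 rose by 0.71 ± 0.22 and EXPA7 differed by 0.46 (adjusted p = 0.0871). EXPA7 lay at 9.31 to 9.63 in the mutant and 8.16 to 8.31 in WT after resupply, against 7.23 to 7.79 and 7.52 to 8.23 without Pi. Their part in the result was not tested.

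Resupplied seedlings were also set against seedlings that had never been starved. All 5 genes were higher after resupply in both genotypes, where 20.5% of all probe sets were higher in the mutant and 23.8% in WT. UF3GT was 5.25-fold higher in the mutant (2.39 ± 0.18 log2, SE, n = 3 arrays per group) and 23.4-fold higher in WT (4.55 ± 0.18). AT4G14090 was 3.74-fold higher in the mutant (1.90 ± 0.19) and 21.4-fold higher in WT (4.42 ± 0.19). AT5MAT was higher by 1.71 ± 0.20 in the mutant and 3.49 ± 0.20 in WT, UGT78D2 by 0.96 ± 0.18 and 2.86 ± 0.18, and DFR by 1.52 ± 0.18 and 2.60 ± 0.18. The root hair genes were higher too, EXPA7 by 2.22 ± 0.20 in the mutant and 1.47 ± 0.20 in WT and EXPA18 by 2.28 ± 0.22 and 1.68 ± 0.22. The genotype difference in their change did not pass (0.75, adjusted p = 0.0577, and 0.60, adjusted p = 0.153), and their part was not tested. The change was smaller in the mutant for all 5 anthocyanin genes, and the test of that difference passed for all 5, against 13.4% of all probe sets in that direction. The median difference was -1.90 over the 5 genes and 0.09 over all probe sets.

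Starvation itself, the comparison of seedlings without Pi with those in complete medium, moved the genes differently in the 2 genotypes. In the mutant UGT78D2 fell to 0.459 of its complete-medium level (-1.12 ± 0.18 log2, SE, n = 3 arrays per group, limma adjusted p = 3.63e-05) and AT5MAT also fell (-0.75 ± 0.20, adjusted p = 0.00412). DFR rose in the mutant (0.60 ± 0.18, adjusted p = 0.0103), while UF3GT (-0.39 ± 0.18, adjusted p = 0.0805) and AT4G14090 (-0.29 ± 0.19, adjusted p = 0.232) did not pass. In WT 4 genes rose: AT4G14090 4.26-fold, UF3GT 3.03-fold, DFR 2.58-fold and UGT78D2 1.62-fold. AT5MAT differed by 0.35 ± 0.20 in WT (adjusted p = 0.16, 95% interval -0.07 to 0.76). The root hair genes also rose in WT (EXPA7 by 1.01 ± 0.20 and EXPA18 by 0.96 ± 0.22). In the mutant they were at 0.31 (adjusted p = 0.237) and 0.30 (adjusted p = 0.285), and the genotype difference in their response did not pass (adjusted p = 0.119 and 0.171). Their part in the starvation values was not tested. Over all probe sets 17.7% rose and 26.3% fell in the mutant, and 20.4% rose and 28.1% fell in WT. The DFR call in the mutant was lost without spx1,spx2 no Pi replicate 1 (0.49, adjusted p = 0.0559), and without WT complete replicate 3 AT5MAT passed in WT (0.54, adjusted p = 0.0322). Both are arrays with a low dap reading.

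The difference between the 2 starvation responses was tested directly and was called for UGT78D2, UF3GT, AT4G14090 and AT5MAT, all lower in the mutant, against 7.74% of all probe sets in that direction. For DFR it was -0.76 ± 0.26 (adjusted p = 0.0587). This DFR value passed without spx1,spx2 no Pi replicate 1 (adjusted p = 0.0485) or WT no Pi replicate 1 (0.0209). The corresponding test for resupply called none of the 5 by limma, where 5.44% of all probe sets were called lower at an adjusted p of 0.05. Of the 5, 1 had an unadjusted p under 0.05, for which no share of all probe sets was taken. The estimates for resupply were -0.31 for DFR (95% interval -0.85 to 0.22) and -0.08 for UGT78D2 (-0.61 to 0.44). They were -0.17 for UF3GT (-0.69 to 0.36) and -0.14 for AT4G14090 (-0.69 to 0.42). For AT5MAT the estimate was -0.69 (-1.27 to -0.10, adjusted p = 0.125), and in a fit to the 4 groups alone it passed (adjusted p = 0.0411). That fit gave 4017 calls over all probe sets, against 2638. These comparisons share arrays with each other and are not separate experiments.

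**Figure D2:**
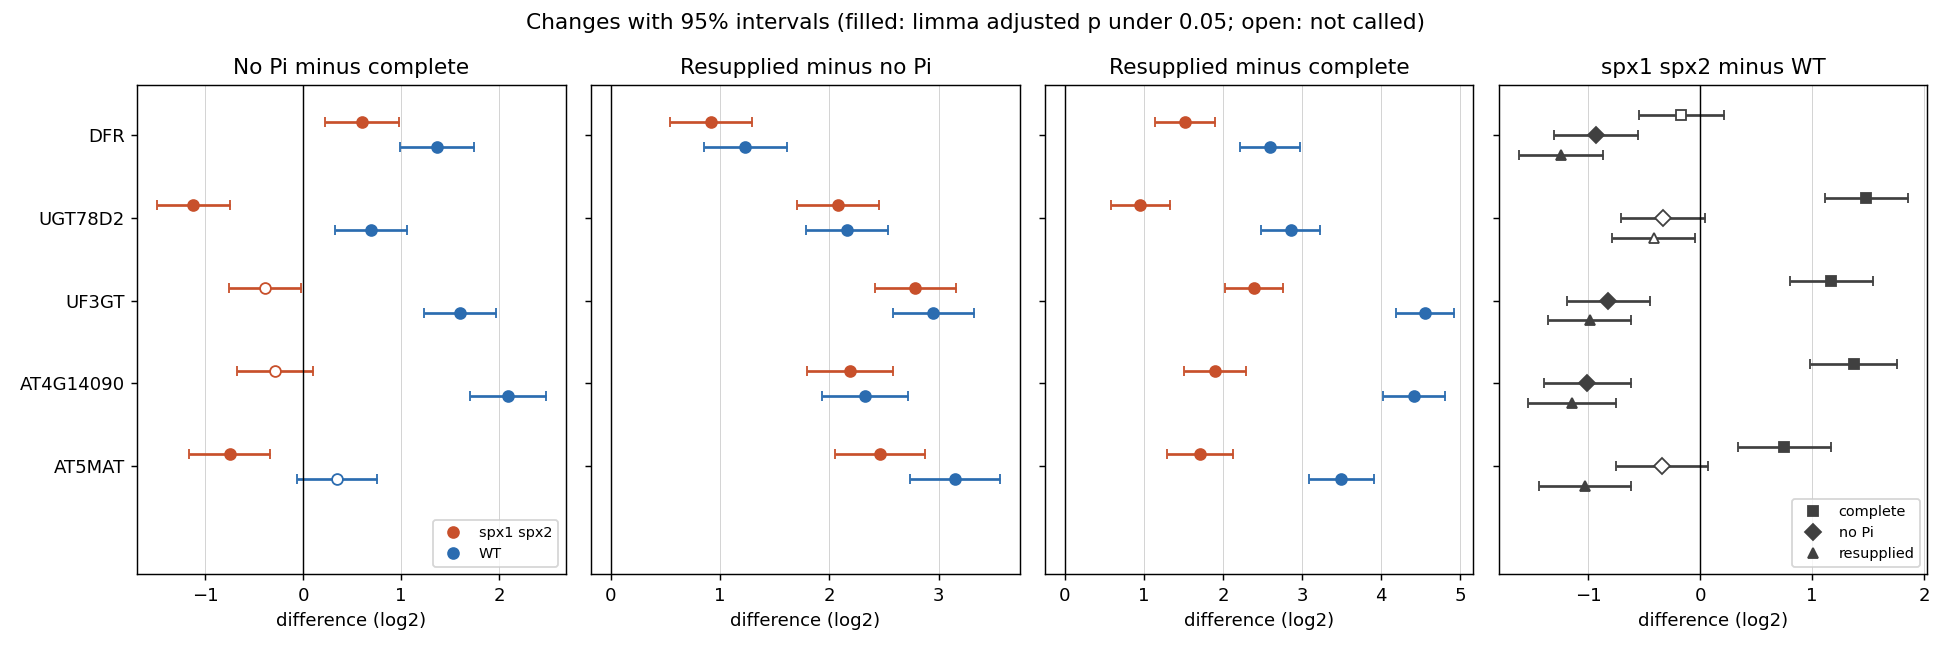
Differences in log2 signal (x axis) with 95% intervals for the 5 genes (y axis, in pathway order), for the media compared within spx1,spx2 (upper point) and WT (lower point) and for spx1,spx2 minus WT in each medium. Filled points passed at a limma adjusted p of 0.05. All resupply differences lie above 0, and the genotype difference of 4 genes lies above 0 in complete medium and below 0 in the other media.

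The genotypes were then compared within each medium. In complete medium the mutant had higher signal for 4 of the 5 genes, where 10.1% of all probe sets were higher. UGT78D2 was 2.80-fold higher (1.49 ± 0.18 log2, SE, n = 3 arrays per group), AT4G14090 2.59-fold, UF3GT 2.25-fold and AT5MAT 1.69-fold (0.75 ± 0.20, adjusted p = 0.0112). DFR differed by -0.17 ± 0.18 (adjusted p = 0.56, 95% interval -0.55 to 0.21). The AT5MAT call was lost without spx1,spx2 complete replicate 1 (0.60, adjusted p = 0.0809) or without WT complete replicate 2 (0.53, adjusted p = 0.0617), and in a fit to these 2 groups alone (adjusted p = 0.0795).

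Without Pi the calls were all for lower signal in the mutant. For AT4G14090 and UF3GT this was the opposite of complete medium, where DFR was not called (-0.17). AT4G14090 was 2.01-fold lower in the mutant (-1.01 ± 0.19 log2, SE, n = 3 arrays per group, adjusted p = 0.0123), DFR 1.91-fold (adjusted p = 0.0172) and UF3GT 1.77-fold (adjusted p = 0.0338). These 3 calls stood among only 0.492% of all probe sets called lower. AT4G14090 ranked 25, DFR 35 and UF3GT 64 among all 22746 probe sets, counted from the largest fall. UGT78D2 (-0.33, 95% interval -0.70 to 0.04) and AT5MAT (-0.34, -0.76 to 0.07) did not pass. The count of 3 fell to 0 without spx1,spx2 no Pi replicate 2 or WT no Pi replicate 2, and to 1 without replicate 3 of either group. AT4G14090 was at -1.01 without replicate 2 of the mutant and at -0.94 without replicate 2 of WT. UF3GT was also lost when each array was centred on its median (-0.75, adjusted p = 0.0646) and without spx1,spx2 no Pi replicate 1 (adjusted p = 0.0872).

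After resupply the mutant was lower for 4 of the 5 genes, against 11.7% of all probe sets. DFR was 2.37-fold lower (-1.24 ± 0.18 log2, SE, n = 3 arrays per group, adjusted p = 7.55e-05), AT4G14090 2.21-fold (adjusted p = 0.00023), AT5MAT 2.04-fold (adjusted p = 0.000916) and UF3GT 1.98-fold (adjusted p = 0.000521). UGT78D2 differed by -0.42 (adjusted p = 0.102) and passed in a fit to the 2 resupplied groups alone (adjusted p = 0.0139) and with array weights (0.0138). In these settings the calls over all probe sets also rose, from 5249 to 8094 and to 9266. The groups did not overlap for any of the 5, as for 49.6% of all probe sets. These values use the WT resupplied arrays, whose dap reading was lower than that of the mutant arrays, and the part of that in the differences was not tested. The root hair genes EXPA7 and EXPA18 were higher in the resupplied mutant (1.25 ± 0.20 and 1.13 ± 0.22), and their part in these differences was not tested.

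DFR was then set against the 4 decoration genes. Over the 18 arrays the 4 decoration genes correlated with each other at 0.91 or more (Pearson's r), and DFR with them at 0.69 (UGT78D2) to 0.89 (AT4G14090). These points share the 6 groups and the arrays. With each group's mean taken off, r ran from 0.16 to 0.81 over the 10 pairs, lowest for DFR with UGT78D2 and highest for UF3GT with AT4G14090. In some groups a replicate was bright or dim for all 5 genes. WT resupplied replicate 1 was the highest and replicate 2 the lowest of its group for 5 of 5 genes. The spx1,spx2 resupplied replicate 1 was the lowest of its group for 5 of 5. Other groups were mixed: replicates 1, 2 and 3 were highest for 1, 1 and 3 genes in WT complete. In the starved mutant they were highest for 3, 2 and 0 genes. The share of all probe sets with the same order was not taken.

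The comparison of DFR with the decoration genes was taken up after their values were seen. On each array the mean of the 4 decoration genes was subtracted from DFR. Only the change of this difference between groups can be read, since its level depends on the probes. It was 1.04 ± 0.34 in the mutant and 2.41 ± 0.45 in WT in complete medium (SD, n = 3), 2.28 ± 0.21 and 2.59 ± 0.22 without Pi, and 0.82 ± 0.08 and 1.17 ± 0.17 after resupply. The 3 values of the mutant in complete medium, 0.68 to 1.35, lay below the 3 of WT, 2.13 to 2.92. In both genotypes the difference was lower after resupply than without Pi, by 1.46 in the mutant and by 1.42 in WT, with no overlap. An exact two-sided permutation test gave p = 0.1 for each of these comparisons, the smallest that 3 arrays against 3 allow, and 0.15 after adjustment over 9 comparisons. The difference was also higher without Pi than in complete medium in the mutant, by 1.24, and lower after resupply than in complete medium in WT (-1.23), again without overlap (exact permutation p = 0.1 each). Starvation in WT left it within the spread of replicates (0.18, exact permutation p = 0.6). After resupply it was lower in the mutant than in WT, without overlap (-0.35, exact permutation p = 0.1). The genotypes without Pi overlapped (-0.30, exact permutation p = 0.2). So did the resupplied and complete-medium groups of the mutant (-0.22, exact permutation p = 0.4).

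**Figure D3:**
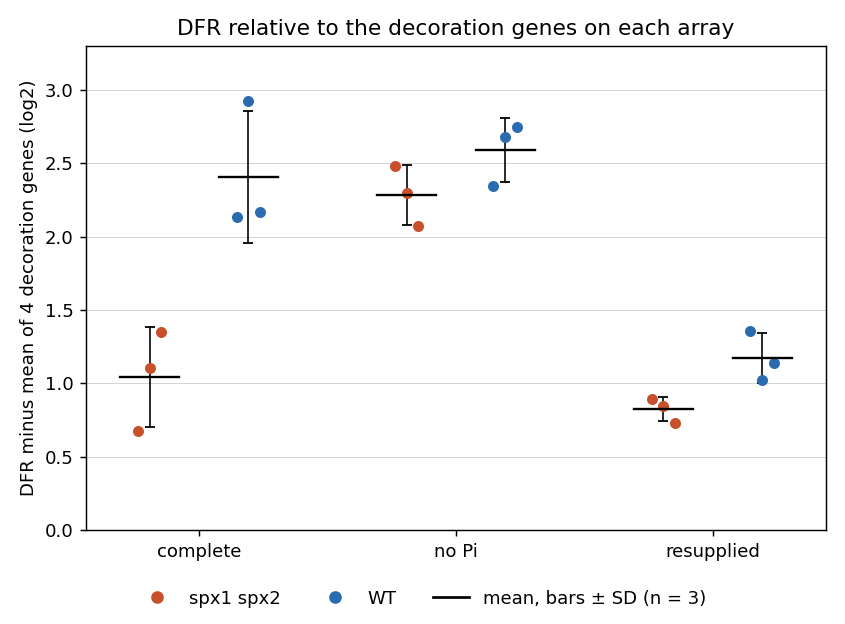
DFR signal minus the mean signal of UGT78D2, UF3GT, AT4G14090 and AT5MAT (log2, y axis) on each array, by medium (x axis) with spx1,spx2 to the left of WT. Lines are means and bars ± SD (n = 3). WT in complete medium and both starved groups lie above 2, and the mutant in complete medium and both resupplied groups lie below 1.4.

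Other genes of the flavonoid pathway came from 7 lists of 54 genes, of which 7 have a probe set named here. They were CHIL, a chalcone isomerase-like protein that aids the early steps, the flavonol glycosyltransferases UGT78D1, UGT89C1 and UGT78D3, the light-signalling bZIP factor HYH, TRY, a single-repeat MYB protein that opposes the MYB and bHLH activators, and BAN of the seed-coat tannin branch. None of the 8 early phenylpropanoid genes or the 6 other late anthocyanin genes listed had a named probe set. Of the 10 listed activators only HYH had one, and of the 9 listed repressors only TRY. Resupply raised 4 of the 7 in each genotype and lowered none, where 23.5% of all probe sets rose in the mutant and 18.4% in WT. UGT89C1 rose by 2.02 ± 0.21 in the mutant and 1.78 ± 0.21 in WT, CHIL by 1.34 ± 0.19 and 1.40 ± 0.19, UGT78D1 by 1.16 ± 0.16 and 1.02 ± 0.16, and HYH by 2.69 ± 0.19 and 2.88 ± 0.19 (log2, SE, n = 3 arrays per group). HYH read 3.94 to 4.15 in the starved mutant, below each array's lower quartile, where RMA compresses differences. In starved WT it read 4.471, 4.39 and 4.498, at about the lower quartiles of those arrays (4.45, 4.48 and 4.445). This touches each HYH change that uses either starved group. TRY (0.21 and 0.24), UGT78D3 (0.14 and 0.18) and BAN (-0.22 and -0.03) did not pass in either genotype. UGT78D3 was under the lower quartile of every array throughout, and BAN on every array except WT complete replicate 3 (5.035). TRY lay between the lower quartile and the median of each array, at 4.52 to 5.49.

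In complete medium CHIL, UGT89C1 and UGT78D1 were also higher in the mutant, while UGT78D3 was not called (0.03, adjusted p = 0.889). UGT89C1 read 10.79, 10.24 and 9.44 in the mutant, against 7.42, 7.07 and 7.13 in WT, a difference of 2.95 ± 0.21. CHIL read 10.50, 9.94 and 9.32 in the mutant, against 8.13, 7.98 and 8.16 in WT, a difference of 1.83 ± 0.19. UGT78D1 was higher by 1.06 ± 0.16 and TRY was lower (-0.67 ± 0.12), and both passed. HYH passed at 0.68 ± 0.19 (adjusted p = 0.0184) although its arrays overlapped. It did not pass without spx1,spx2 complete replicate 1 (0.41, adjusted p = 0.142), WT complete replicate 2 (0.63, 0.0536) or WT complete replicate 3 (0.50, 0.089). In all, 4 of the 7 were higher and 1 was lower, against 10.1% and 8.15% of all probe sets.

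Starvation lowered CHIL (-0.92 ± 0.19), UGT78D1 (-0.66 ± 0.16), UGT89C1 (-1.50 ± 0.21) and HYH (-2.56 ± 0.19) in the mutant, 4 of the 7 (26.3% of all probe sets), and raised none. In WT it raised CHIL (1.37 ± 0.19), UGT78D1 (0.61 ± 0.16) and UGT89C1 (1.93 ± 0.21) and lowered HYH (-1.45 ± 0.19) and TRY (-0.73 ± 0.12), where 20.4% of all probe sets rose and 28.1% fell. The difference between the genotypes' starvation responses passed for these 5 genes, lower in the mutant for 4 and higher for TRY, against 7.74% and 4.41% of all probe sets. Without Pi none of the 7 was called between the genotypes by limma, where 0.339% of all probe sets were higher and 0.492% lower. Of the 7, 3 had an unadjusted p under 0.05, for which no share of all probe sets was taken. Values ran from -0.49 for UGT89C1 to 0.29 for BAN. After resupply HYH was lower in the mutant (-0.61 ± 0.19, adjusted p = 0.0277), a call that was lost on leaving out any of 5 of the 6 arrays compared. CHIL (-0.51, adjusted p = 0.0661) and UGT89C1 (-0.24, adjusted p = 0.457) did not pass, unlike 4 of the 5 anthocyanin genes. Whether the 2 sets differ in this was not tested.

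**Figure D4:**
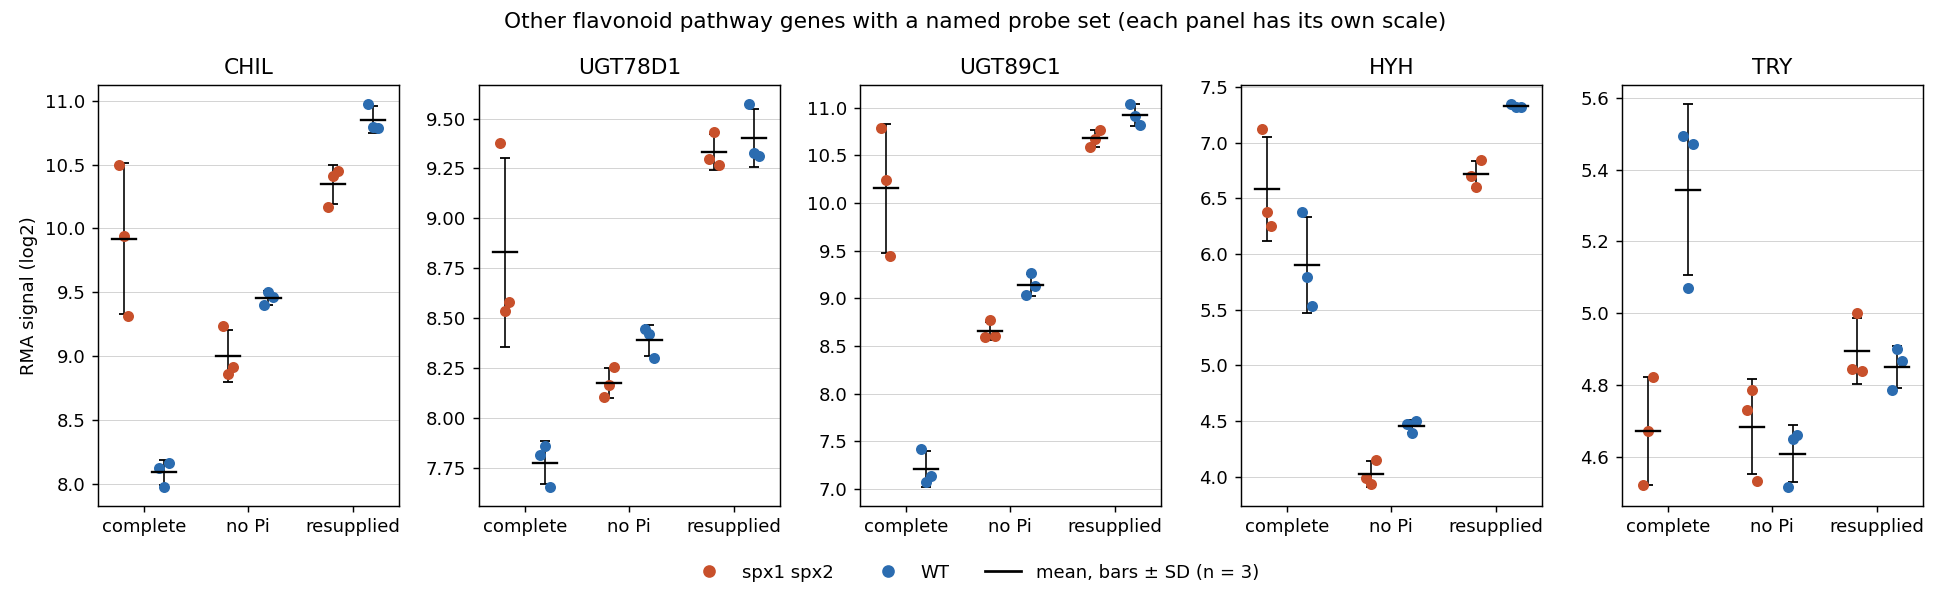
RMA signal (log2, y axis) of CHIL, UGT78D1, UGT89C1, HYH and TRY on each array, by medium (x axis) with spx1,spx2 to the left of WT. Points are arrays, lines are means and bars ± SD (n = 3). CHIL, UGT78D1 and UGT89C1 stand higher in the mutant than in WT in complete medium, and HYH is lowest without Pi in both genotypes.

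UGT78D2 lies beside 2 relatives on the chromosome, AT5G17040 and UGT78D3, in the RefSeq gene order of TAIR10.1. AT5G17040 was called in the same direction as UGT78D2 for resupply, at 0.80 ± 0.16 in the mutant and 0.72 ± 0.16 in WT, and for the genotypes in complete medium, at 0.54 ± 0.16 (adjusted p = 0.0292). AT5G17040 was also called in that direction for starvation in the mutant (-0.81 ± 0.16) and for resupplied against complete medium in WT (0.74 ± 0.16). The genotype differences in the starvation and the resupplied-against-complete changes were called that way too (-0.83 ± 0.23 and -0.75 ± 0.23). AT5G17040 was not called for starvation in WT (0.02, adjusted p = 0.94), where UGT78D2 was. Nor was it called for resupplied against complete medium in the mutant (-0.01, adjusted p = 0.971), where UGT78D2 was. UGT78D3 passed in none of the 12 tests, and 0 of its 12 values reached 0.2 in size. Whether probes of 1 relative read transcripts of another was not tested.

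The genes with the most similar pattern were sought among 13508 other probe sets with a single named gene, by Pearson's r over the 18 arrays. AT4G25090 was closest to DFR (0.95), AT5G41670 to UGT78D2 (0.98), AT2G15780 to UF3GT (0.96) and to AT5MAT (0.98), and AT1G22440 to AT4G14090 (0.95). The mean pattern of the 5, each centred and scaled, was closest to AT2G15780 (0.96), AT2G44370, AT4G26950, AT2G25530 and AT3G15357 (each 0.95). AT2G15780 averaged 7.09 in the resupplied mutant and 7.66 in resupplied WT, and 4.19 to 4.93 in the 4 other groups. AT4G26950 averaged 3.81 to 4.24 in those 4 groups. These means, and that of AT2G15780 in WT complete (4.19), lay below the arrays' lower quartiles, where RMA compresses differences. The points share 6 groups and are not independent.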

How the data were processed

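Total RNA of whole seedlings was hybridised to 18 Affymetrix arrays, 3 for each of 6 groups. The deposited values are log2 signals that the authors made with RMA, per the submitters' processing notes. The notes do not name its software, version or probe set definition. The log base was inferred from the range of values, 2.289 to 14.346. RMA makes the arrays' distributions alike, so it cannot show a change in the amount of RNA per seedling.

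The 64 control probe sets were set aside, which left 22746. All 18 arrays were fitted with a mean per group in limma 3.58.1 on R 4.3.3 (12 residual and 6.40 prior degrees of freedom), and 12 contrasts, 3 of them interactions, were adjusted over all 22746 probe sets by Benjamini-Hochberg at 0.05. Intervals are 95% and not adjusted. The procedure was tested on simulated data. Precision is limited by having 3 arrays in a group. Replicates are biological per the labels, which name no batch. Same-numbered arrays did not deviate together: r of their deviations ran from -0.45 to 0.23, with 6 of 27 pairs over 0.1.

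The members, gene lists and tests were chosen with earlier results of these data known. Named genes are the 5 members, every list gene with a named probe set, the 3 probe sets most like each member (of which the closest is given) and the 5 most like their mean. AT5G17040 and the DFR difference were added after seeing values. No sequences were used here.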

Additional observations from a re-analysis of the deposited data

Results flagged for a closer look

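The change from complete medium to another medium differed between the genotypes, by the interaction term of the limma model, for 4 of the 5 genes under starvation, where 7.74% of all probe sets were called lower. The mutant's change less that of WT was -1.82 ± 0.25 for UGT78D2 (log2, SE, n = 3 arrays per group, adjusted p = 8.09e-05), -1.99 ± 0.25 for UF3GT (adjusted p = 2.82e-05), -2.38 ± 0.26 for AT4G14090 (adjusted p = 7.34e-06) and -1.10 ± 0.28 for AT5MAT (adjusted p = 0.0143). UGT78D2 is the member with significant changes in opposite directions, down in the mutant and up in WT.

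For resupplied against complete medium it differed for all 5, where 13.4% of all probe sets were called lower. The mutant's change less that of WT was -1.07 ± 0.26 for DFR (adjusted p = 0.00437), -1.90 ± 0.25 for UGT78D2 (adjusted p = 2.2e-05), -2.16 ± 0.25 for UF3GT (adjusted p = 4.91e-06), -2.52 ± 0.26 for AT4G14090 (adjusted p = 1.54e-06) and -1.78 ± 0.28 for AT5MAT (adjusted p = 0.000127). Both interactions use the complete-medium arrays, in which 4 of the 5 genes already differed between the genotypes.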

How the results depend on the processing

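Over 8 other settings the 5 genes kept their direction and their side of the threshold in 467 of 480 values, with 7 gained and 6 lost calls and no change of sign. The calls for resupply and for resupplied against complete medium, all 5 in each genotype, were kept in all of these settings and with any array left out. The count of called genes differed from that reported in 13 of 96 cases, each by 1 gene, and by over 1.5 times in 1 of them: a fit to the groups compared gave 1 gene, AT5MAT, for the genotype difference in resupply, against 0. With 1 array left out the count for the genotypes without Pi ran from 0 to 3. In the same fits 2 uncalled genotype differences in resupply changed sign, UF3GT at 0.029 without WT no Pi replicate 1 (range -0.298 to 0.029) and UGT78D2 at 0.004 without WT resupplied replicate 1 (range -0.201 to 0.004). With a replicate block, which the deviations do not favour, the UF3GT difference without Pi had an adjusted p of 0.0572, the only call of the 5 genes that the block changed. The call of DFR for starvation in the mutant was also lost with array weights (0.50, adjusted p = 0.109). Centring each array moved the median of all probe sets for the starvation interaction to 0.17, against 0.04, and the share of all calls that were higher to 61.9%, against 36.3%. It moved that share to 41.7%, against 55.3%, for the genotypes in complete medium, to 62.8%, against 40.7%, without Pi, and to 63.4%, against 51.5%, for the resupplied-against-complete interaction. Over all probe sets the genotypes without Pi gave 189 calls, 125 with the block, 667 with array weights and 49 to 110 without 1 of 4 arrays. The genotypes in complete medium gave 4146 calls, 1525 in a fit to those groups, and after resupply 5249, with 8094 in such a fit and 9266 with array weights. The starvation interaction gave 2762 and 1580, and the resupply interaction 2638, 4017 and 5843. The cause of these moves was not tested.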
